A study of Mus musculus with 17 samples.

Results

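Loss of the ribosome rescue factor Pelota was examined in epidermal cells of the mouse that carry the Lgr6 marker. The comparison took the 3 libraries labelled Pelo -/- Lgr6 against the 3 labelled WT Lgr6, which are 6 of the 17 libraries of the series. Of the 48820 gene identifiers in the count table, 17128 passed the low-count filter in these 6 libraries and make up the comparison. The remaining libraries came from cells marked by Lrig1 and Lgr5.

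Pelo -/- Lgr6 cells came from mice with a floxed pair of Pelo alleles (Pelo fl/fl), and WT Lgr6 cells from mice with 1 floxed allele (Pelo fl/+), so the WT label covers heterozygous floxed animals. All mice were C57BL/6 animals of 3 months. All carried an EGFP-CreERT2 cassette at the Lgr6 locus and had received 4-hydroxytamoxifen, so Cre acts only in cells that express Lgr6 and the fluorescent protein marks the same cells. Each library was made from 1000 GFP-positive epidermal cells collected by flow cytometry, with a full-length cDNA method. The Lrig1 and Lgr5 groups were built in the same way, each with the cassette at its own locus. Nothing in the labels ties each replicate to an animal of its own, and the p-values below therefore measure the spread between these libraries, which may be technical.

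Pelota binds ribosomes that have stalled near the end of a broken messenger RNA or run into a 3′ untranslated region. With its partner Hbs1l and the ATPase Abce1 it splits them, and the freed subunits can be used again, while the broken message is degraded and the unfinished peptide is removed by the Ltn1 ubiquitin ligase. Lgr6, a receptor for R-spondins, marks cells of the follicle isthmus and scattered cells of the interfollicular epidermis, which renew the epidermis and take part in wound repair.

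The 6 libraries held between 18338235 and 28098841 counts. Keratinocyte genes were abundant in all of them. Krt14, the keratin of basal cells, had levels of 8058, 7235 and 9368 CPM (counts scaled to library size with TMM factors) in Pelo -/- libraries and 3816, 8193 and 5248 CPM in WT libraries. Trp63, the transcription factor of stratified epithelia, had 1028, 976 and 915 CPM in Pelo -/- libraries and 1025, 595 and 1062 CPM in WT libraries. Lgr6 itself had 152, 97.2 and 144 CPM in Pelo -/- libraries and 131, 61.6 and 167 CPM in WT libraries, a log2 fold change of 0.13 ± 0.37 (SE) that turned to -0.19 without WT replicate 2. WT replicate 2 stood apart from the other 5 libraries. It alone held high levels of follicle and wound keratin genes, among them Krt17 at 1190 CPM and Krt6a at 526 CPM, and it held low levels of Egr1 (214 CPM) and Atf3 (55.8 CPM). The plot of gene lists gives the median of each list with and without that library.

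Pelo was counted at a low level, and the groups overlapped. It had 2.61, 3.99 and 3.84 CPM in the libraries labelled Pelo -/- and 3.39, 4.18 and 1.71 CPM in the libraries labelled WT, a log2 fold change of 0.17 ± 0.73. The counts summed to 211 in Pelo -/- libraries and 215 in WT libraries. The labels do not name the part of Pelo that the floxed allele removes, and a transcript that keeps counted exons would be counted in both groups. The Lgr6 counts therefore neither separate the groups nor check their labels, and the direction of every difference below rests on the labels. In Lrig1 cells Pelo had 3.20, 0.441 and 0.762 CPM with Pelo -/- and 4.75 and 3.32 CPM with WT. In Lgr5 cells it had 13.4, 24.8 and 15.7 CPM with Pelo -/- and 17.8, 6.76 and 19.2 CPM with WT. How far Pelo was removed in the Lgr6 libraries was not tested. On GRCm38 Pelo lies on chromosome 13 from 115088355 to 115090186, inside Itga1 and on the same strand, so reads of these genes may be hard to tell apart. Itga1, an integrin subunit, had 0, 0.454 and 0.0486 CPM in Pelo -/- libraries and 0.836, 0.156 and 2.67 CPM in WT libraries.

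The partners of Pelota showed no difference beyond their spread. Hbs1l had 29.1, 29.0 and 59.4 CPM in Pelo -/- cells and 59.0, 31.4 and 40.5 CPM in WT cells, a log2 fold change of -0.16 ± 0.37. Abce1 had 95.8, 52.7 and 108 CPM in Pelo -/- cells and 107, 92.0 and 98.0 CPM in WT cells, a log2 fold change of -0.21 ± 0.31. Both signs turned when single libraries were left out. Of the 31 ribosome rescue and quality control genes tested, 14 were higher and 17 lower in value, with a median log2 fold change of -0.01. Only Ascc2 and Ltn1 had groups that did not overlap. Ascc2, a subunit of the complex that takes apart collided ribosomes, had 17, 22.1 and 22.5 CPM in Pelo -/- cells and 12.9, 9.30 and 8.72 CPM in WT cells (0.99 ± 0.39). Ltn1 had 43.1, 43.1 and 58.6 CPM in Pelo -/- cells and 32.7, 26.4 and 31.8 CPM in WT cells (0.67 ± 0.29). Neither passed the test, and 2 of 31 genes is close to the 4.97% of all tested genes whose Pelo -/- libraries all lay above their WT libraries.

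No gene passed the test in Lgr6 cells. In edgeR's quasi-likelihood test with Benjamini-Hochberg adjustment, 0 of 17128 genes (0.00%) had an adjusted p under 0.05, and the smallest adjusted p was 0.777. An unadjusted p under 0.05 was reached by 679 genes, or 3.96% of those tested, of which 292 (1.70%) were higher and 387 (2.26%) lower in Pelo -/- cells. The groups were separate, with every Pelo -/- library on 1 side of every WT library, for 9.11% of genes, of which 852 (4.97%) had higher and 708 (4.13%) lower values in Pelo -/- cells. The median log2 fold change was -0.04. Among the 9016 genes whose mean log2 CPM was 3 or more, the median standard error of a log2 fold change was 0.37, against 0.55 over all tested genes. DESeq2 on the same genes called 49 (0.286%), with 16 higher (0.0934%) and 33 lower (0.193%). edgeR without the low-count filter called 42 of 44422 genes (0.0945%), with 5 higher (0.0113%) and 37 lower (0.0833%), and 20 of the 42 were genes that the filter removes. The lists shared 11 genes, which are 22.4% of the DESeq2 calls and 26.2% of the calls made without a filter. The genes below are therefore given as values, led by those with the smallest p among well-counted genes whose groups do not overlap.

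**Figure D1:**
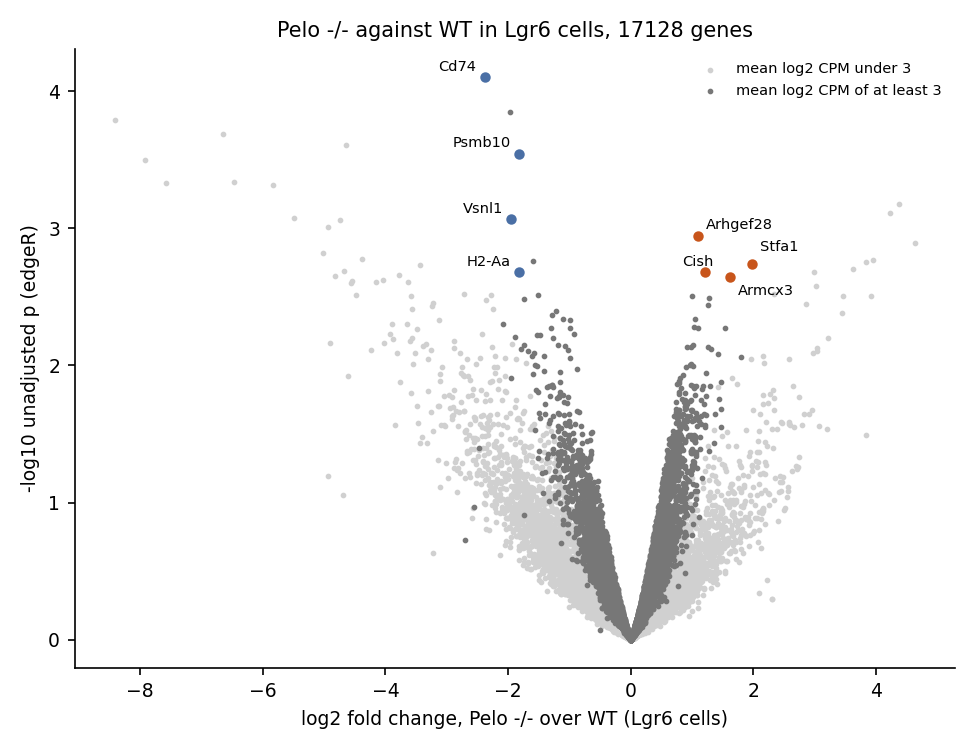
Each point is 1 of 17128 genes in Lgr6 cells, with the log2 fold change of Pelo -/- over WT on the x axis and the -log10 of the unadjusted edgeR p on the y axis. Light points have a mean log2 CPM under 3 and dark points 3 or more, and 8 leading genes are named. Cd74, at -2.38, stands at the top among the lower genes, and Arhgef28, at 1.09, among the named higher ones.

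The lowest p in the comparison belonged to Cd74, and the antigen presentation genes that work with it were lower in value as well. MHC class II molecules display peptides taken up from outside the cell. Their alpha and beta chains assemble with the invariant chain Cd74, exchange it for a peptide with the help of H2-DM, and are transcribed under the coactivator Ciita. They are typical of dendritic cells, Langerhans cells and B cells, and epithelial cells can also carry them. The promoters of these genes share a set of short elements, of which the Y box, an inverted CCAAT element, is the easiest to see. The 250 bases before the RefSeq start site on GRCm38.p6 are shown for 3 members, in the direction of transcription, since all 3 lie in the MHC on chromosome 17 and differ in how far they separated the groups. H2-Aa, of the alpha chain, is read from chr17:34287824-34288073 on the minus strand, H2-Eb1, of a beta chain, from chr17:34305617-34305866 on the plus strand, and H2-DMb1, of the peptide exchanger, from chr17:34152941-34153190 on the plus strand. Capitals mark TGATTGG, which was chosen after these sequences were seen and searched on both strands.
H2-Aa: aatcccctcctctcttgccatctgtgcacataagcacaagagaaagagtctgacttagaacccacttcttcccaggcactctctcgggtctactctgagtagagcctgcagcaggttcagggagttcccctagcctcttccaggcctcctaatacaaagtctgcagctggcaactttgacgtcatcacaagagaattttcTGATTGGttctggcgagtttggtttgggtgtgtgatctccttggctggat
H2-Eb1: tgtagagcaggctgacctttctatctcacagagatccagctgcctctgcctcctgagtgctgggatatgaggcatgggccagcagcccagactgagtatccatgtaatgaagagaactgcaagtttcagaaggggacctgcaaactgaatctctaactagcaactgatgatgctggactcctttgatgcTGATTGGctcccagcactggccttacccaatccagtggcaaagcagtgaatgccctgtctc
H2-DMb1: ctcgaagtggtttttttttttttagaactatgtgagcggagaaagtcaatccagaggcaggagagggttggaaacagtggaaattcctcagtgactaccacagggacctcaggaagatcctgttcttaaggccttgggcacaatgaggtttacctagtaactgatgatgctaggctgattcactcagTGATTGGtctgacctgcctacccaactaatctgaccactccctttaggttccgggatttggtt
The motif began 50, 61 and 63 bases before the start site of H2-Aa, H2-Eb1 and H2-DMb1. Of the 9 list members with a RefSeq window, 7 held it, and 7.23% of all 32851 windows did. The 3 genes shown are among the 7, and the motif was chosen from them, so these shares do not test an enrichment. H2-Eb2, H2-Oa and H2-Ob, also among the 7, did not pass the low-count filter. Cd74, H2-Ab1 and Ciita had no window. The motif is a match of letters and no measurement of binding.

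All 8 class II genes that passed the filter, of 13 listed, were lower in value in the libraries labelled Pelo -/-, with a median log2 fold change of -1.56. Over all tested genes 53.1% were lower. In 4 of the 8 every Pelo -/- library lay below every WT library, against 4.13% of all tested genes. Cd74, on chromosome 18 from 60803848 to 60812652, had 27.3, 31.1 and 32.2 CPM in Pelo -/- cells and 273, 94.0 and 106 CPM in WT cells, a log2 fold change of -2.38 ± 0.41 with an edgeR adjusted p of 0.777. The Pelo -/- libraries lay close together and far below every WT library, and the WT libraries differed most from each other through replicate 1. Leaving out single libraries gave log2 fold changes between -2.64 and -1.72. H2-Aa, which pairs with H2-Ab1, had 18.1, 14.8 and 9.19 CPM in Pelo -/- cells and 84.8, 39.8 and 23.7 CPM in WT cells (-1.82 ± 0.46). H2-Ab1 had 0.936, 1.87 and 4.23 CPM in Pelo -/- cells and 8.60, 17.7 and 7.45 CPM in WT cells (-2.26 ± 0.70). Ciita, the coactivator, had 0.0986, 0.505 and 0.389 CPM in Pelo -/- cells and 1.62, 1.48 and 2.01 CPM in WT cells (-2.35 ± 0.93). Its highest Pelo -/- library held less than its lowest WT library.

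In the other 4 class II genes the groups overlapped. H2-Eb1 had 2.51, 37.7 and 9.53 CPM in Pelo -/- cells and 25.3, 37.0 and 16.9 CPM in WT cells (-0.67 ± 0.71), with Pelo -/- replicate 2 as high as any WT library. H2-DMa had 6.06, 4.54 and 4.18 CPM in Pelo -/- cells and 25.1, 9.53 and 2.01 CPM in WT cells (-1.31 ± 0.74). H2-DMb1 had 3.30, 6.36 and 5.39 CPM in Pelo -/- cells and 5.65, 12.5 and 14.8 CPM in WT cells (-1.13 ± 0.57). H2-DMb2, a close copy of H2-DMb1 that may share reads with it, had 0.296, 1.11 and 1.51 CPM in Pelo -/- cells and 0.983, 4.77 and 0.788 CPM in WT cells, and its sign turned without WT replicate 2. Without that library 7 of the 8 genes were lower and their median was -1.61. The 5 listed genes that did not pass the filter lay at or under 0.606 CPM in Pelo -/- libraries and at or under 1.67 CPM in WT libraries. Ciita and H2-DMb2 passed the filter with WT levels above the minimum count in all 3 libraries, and so the count over tested members is a description only.

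**Figure D2:**
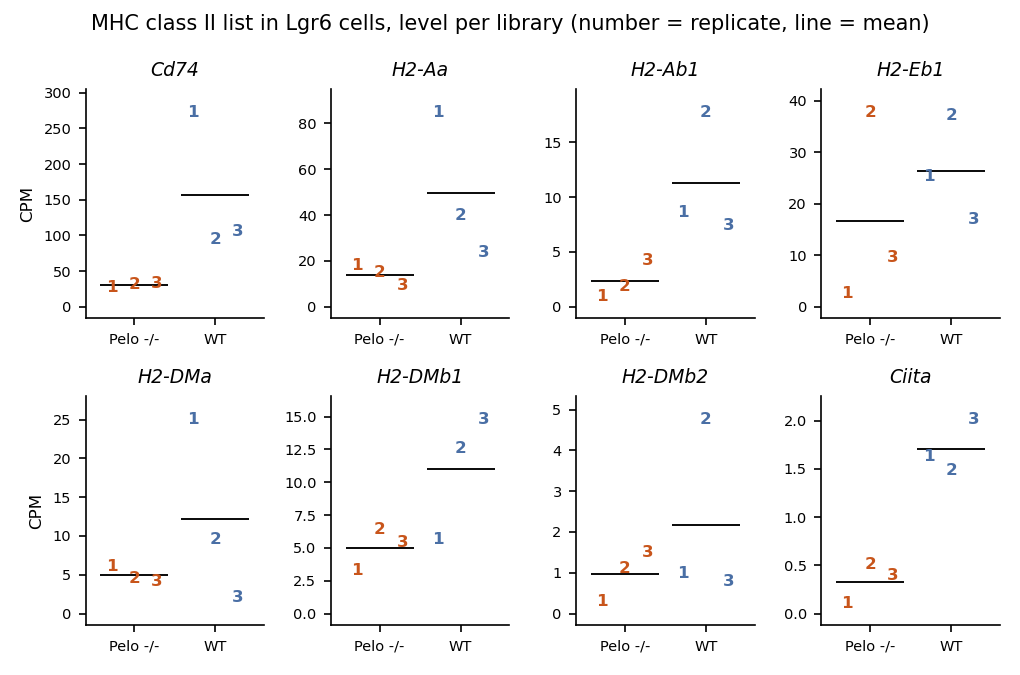
Each panel shows 1 of the 8 tested class II genes, with CPM on the y axis and the Pelo -/- and WT libraries of Lgr6 cells on the x axis. Numbers are the replicates and lines the group means. The groups do not overlap for Cd74, H2-Aa, H2-Ab1 and Ciita and overlap for the other 4.

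Markers of Langerhans cells and macrophages, which carry class II molecules, were present at low levels and mostly lower in value. Of 14 listed, 10 passed the filter, and 8 of these were lower in value. Over all tested genes 53.1% were lower. Epcam aside, which keratinocytes also express, the remaining 13 genes summed to between 10.7 and 14.1 CPM in Pelo -/- libraries and between 16.8 and 31.6 CPM in WT libraries. Single genes carried much of the WT sums. Cd14, which did not pass the filter, gave 8.06 of the 16.8 CPM in WT replicate 3. Fcer1g gave 13.2 of the 31.6 CPM in WT replicate 1. The sums therefore do not stand for the listed genes as a set. None of the 14 was at 0 in all 6 libraries. Cd207, which encodes langerin, had 0.197, 1.82 and 0.0972 CPM in Pelo -/- cells and 4.23, 1.21 and 1.84 CPM in WT cells, so the groups overlapped. Of the 10 tested, Cd207 alone reached the minimum count in all WT but not all Pelo -/- libraries, and 2 genes did the reverse. Cd68 had 0.542, 0.858 and 2.33 CPM in Pelo -/- cells and 3.88, 4.14 and 4.29 CPM in WT cells. Cx3cr1 went the other way, with 4.24, 1.41 and 7.53 CPM in Pelo -/- cells and 0.344, 1.91 and 0.350 CPM in WT cells. The part of such cells in the class II difference was not tested. In a library of sorted cells, fewer cells of a type and less RNA per cell cannot be told apart.

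Class I presentation showed a smaller shift that depended on a single library. MHC class I molecules display peptides cut by the proteasome inside every nucleated cell. Of 21 class I genes tested, 15 were lower in value, with a median of -0.17, and without WT replicate 3 only 6 were lower and the median was 0.06. Psmb10, a catalytic subunit of the immunoproteasome on chromosome 8 from 105935735 to 105938444, was the only one with separate groups. That is 4.76% of the list, close to the 4.13% of all genes tested with separate groups on the lower side. Psmb10 had 10.8, 9.74 and 11.4 CPM in Pelo -/- cells and 24.8, 41.2 and 46.9 CPM in WT cells (-1.82 ± 0.36), and single libraries left out gave -2.04 to -1.59. B2m, the light chain of class I, had 2255, 2160 and 2402 CPM in Pelo -/- cells and 2656, 2163 and 6382 CPM in WT cells. Its difference was -0.72 ± 0.42 and, without WT replicate 3, -0.05. Psmb9, another immunoproteasome subunit, had 30.7, 86.4 and 63.0 CPM in Pelo -/- cells and 64.7, 91.3 and 123 CPM in WT cells.

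Interferon response genes, which include inducers and products of the same pathway, were lower in value in 22 of 28, with a median of -0.56. The median stayed between -0.58 and -0.28 when single WT libraries were left out. Over all tested genes 53.1% were lower. Separate groups were as rare as elsewhere, with 1 gene lower and 1 higher. That is 3.57% of the list each way, against 4.13% lower and 4.97% higher over all tested genes. Ifit1, which binds foreign RNA, had 0, 0.555 and 0 CPM in Pelo -/- cells and 0.639, 2.70 and 10.5 CPM in WT cells. Ifit1 passed the filter with levels above the minimum count in every WT library. Of the 28 genes, 4 reached the minimum count in all WT libraries but not in all Pelo -/- libraries, and 2 the reverse. The counts over tested members are therefore a description only. Ifi27l2a had 4.63, 14.6 and 7.82 CPM in Pelo -/- cells and 28.1, 10.5 and 26.8 CPM in WT cells (-1.27 ± 0.53), and the groups overlapped. Oas1a, a sensor of double-stranded RNA, was higher in value, with 3.15, 14.7 and 4.33 CPM in Pelo -/- cells and 2.51, 0.273 and 2.85 CPM in WT cells. AW112010, chosen after its values were seen, had no count in any Pelo -/- library and 2.06, 2.19 and 1.66 CPM in WT libraries. Against a floor of 3 counts over the Pelo -/- group it was at least 40.0-fold lower, which covers counting error only. AW112010 passed the low-count filter through its WT libraries alone, and so this fold is a description only.

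The other leading lower genes belong to no single pathway. Vsnl1, a neuronal calcium sensor protein, had 5.22, 5.45 and 7.82 CPM in Pelo -/- cells and 14.6, 25.3 and 31.4 CPM in WT cells (-1.94 ± 0.44). Pmf1, a component of the kinetochore, had 10.005, 8.43 and 5.83 CPM in Pelo -/- cells and 19.8, 26.1 and 27.6 CPM in WT cells (-1.60 ± 0.40). Both genes had separate groups. DESeq2 called Cd74, Psmb10, Vsnl1 and Pmf1, with adjusted p of 0.00078, 0.00294, 0.0101 and 0.0204, while edgeR with the filter called none of them. Without the filter edgeR called Cd74, with an adjusted p of 0.000133.

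Further leading lower genes had varied roles. Lgals9, a galectin, had 15.2, 40.1 and 13.4 CPM in Pelo -/- cells and 64.7, 57.5 and 74.5 CPM in WT cells (-1.52 ± 0.41). Mill1, a relative of class I heavy chains, had 13.5, 22.2 and 15.6 CPM in Pelo -/- cells and 45.9, 42.6 and 30.3 CPM in WT cells (-1.21 ± 0.34). Apoc1, an apolipoprotein, had 244, 283 and 292 CPM in Pelo -/- cells and 475, 602 and 552 CPM in WT cells (-0.99 ± 0.29). All of these kept separate groups at quite different levels. Stard5, a sterol-binding protein, had 45.9, 33.5 and 53 CPM in Pelo -/- cells and 95.8, 99.0 and 69.6 CPM in WT cells (-0.997 ± 0.29). Rnaseh2a, the catalytic subunit of the nuclease that removes ribonucleotides from DNA, had 21.6, 8.58 and 18.4 CPM in Pelo -/- cells and 33.9, 39.6 and 46.5 CPM in WT cells (-1.30 ± 0.38). Ankrd54, Tmem98, Egr2 and Tmem176b were also among the leading lower genes, with log2 fold changes of -1.74, -1.28, -1.10 and -0.93. Nrg1, a ligand of the EGF receptor family counted below the level of these genes, had 1.48, 0.858 and 0.680 CPM in Pelo -/- cells and 6.49, 8.09 and 5.43 CPM in WT cells (-2.72 ± 0.74).

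The leading higher genes differed less in size. Arhgef28, an exchange factor of small GTPases on chromosome 13 from 97899469 to 98206439, had 81.2, 84.3 and 86.9 CPM in Pelo -/- cells and 39.3, 40.0 and 39.0 CPM in WT cells, a log2 fold change of 1.09 ± 0.26. Both groups were very tight. Leaving out single libraries gave 1.08 to 1.13, and DESeq2 called it with an adjusted p of 0.0223. Armcx3, a protein of the outer mitochondrial membrane, had 16.8, 21.6 and 26.6 CPM in Pelo -/- cells and 8.06, 5.12 and 8.02 CPM in WT cells (1.62 ± 0.42), and DESeq2 called it as well, with an adjusted p of 0.0268. Stfa1, a cysteine protease inhibitor, had 77.4, 24.1 and 33.7 CPM in Pelo -/- cells and 11.5, 6.09 and 16.7 CPM in WT cells (1.98 ± 0.50). Its neighbour Stfa3 had 113, 115 and 73.5 CPM in Pelo -/- cells and 22, 31 and 95.1 CPM in WT cells. These stefins are near-identical copies, and the split of reads between them is uncertain.

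Other leading higher genes differed by a like amount. Parp1, which builds poly(ADP-ribose) at DNA breaks, had 41.2, 39.1 and 67.3 CPM in Pelo -/- cells and 19.9, 26.3 and 14.5 CPM in WT cells (1.28 ± 0.35). H1f0, a linker histone of resting and differentiated cells, had 134, 205 and 129 CPM in Pelo -/- cells and 75.7, 89.5 and 61.2 CPM in WT cells (1.05 ± 0.30). Hist1h1c, another linker histone, had 46.1, 26.7 and 69.2 CPM in Pelo -/- cells and 7.86, 17.9 and 23.1 CPM in WT cells (1.54 ± 0.45). In each the groups were separate, and the Pelo -/- libraries, which had the higher levels, varied more in CPM. Cish, an inhibitor of cytokine receptors, had 39.3, 53 and 49.1 CPM in Pelo -/- cells and 25.4, 17.8 and 18.0 CPM in WT cells (1.21 ± 0.31). Zc3h12a, a ribonuclease that cuts inflammatory messages, had 16.1, 28 and 18.6 CPM in Pelo -/- cells and 9.59, 4.65 and 9.20 CPM in WT cells (1.42 ± 0.45). Sash1, F2r, Galnt7, Rhod, Slc35b3, Sirpa and Slc19a2 were the other leading higher genes, with log2 fold changes between 0.91 for Sirpa and 1.32 for Slc19a2.

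Genes of the basal keratinocyte were mostly higher in value in the libraries labelled Pelo -/-. Of 23 tested, 18 were higher, with a median of 0.45, and the median lay at 0.39 without WT replicate 2. Over all tested genes 46.9% were higher, and among genes whose mean log2 CPM was 3 or more it was 56.5%. Krt5, the partner of Krt14, had 7321, 6516 and 6847 CPM in Pelo -/- cells and 3877, 5456 and 4764 CPM in WT cells (0.55 ± 0.34). Col17a1, a collagen of the hemidesmosome, had 3033, 2083 and 2545 CPM in Pelo -/- cells and 1433, 1263 and 1752 CPM in WT cells (0.78 ± 0.33). Both had separate groups, and neither passed the test. Cxcl14 and Sostdc1 were exceptions. Cxcl14, a chemokine, had 39.2, 31.6 and 41.2 CPM in Pelo -/- cells and 88.8, 47.3 and 90.2 CPM in WT cells (-1.01 ± 0.32). Sostdc1, an inhibitor of Wnt and BMP ligands, had 19.3, 40.8 and 44.6 CPM in Pelo -/- cells and 47.3, 198 and 62.8 CPM in WT cells (-1.56 ± 0.51), and without WT replicate 2 its value was -0.66. Hemidesmosome and extracellular matrix genes were higher in value in 25 of 38, with a median of 0.29. The laminin chain Lamb3 had 0.58 ± 0.29, with groups that overlapped.

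Follicle genes were mostly lower in value with WT replicate 2 and evenly split without it. In the upper follicle and isthmus list, 16 of 22 were lower with a median of -0.55, and without that library 11 of 22 were lower with a median of 0.00. In the bulge and hair germ list, 20 of 28 were lower with a median of -0.22, and without it 13 of 28 with a median of 0.07. Krt17 had 108, 75.4 and 61.7 CPM in Pelo -/- cells and 40.6, 1190 and 138 CPM in WT cells. Cst6, a cystatin of the follicle and the cornified layer, had 20.3, 26.6 and 146 CPM in Pelo -/- cells and 47.8, 1003 and 83.6 CPM in WT cells. Krt79, which marks the upper follicle, had 46.4, 89.8 and 131 CPM in Pelo -/- cells and 103, 764 and 28.7 CPM in WT cells. In each of these genes the other 2 WT libraries lay within or near the Pelo -/- range. Lgr5 had 0.394, 1.51 and 0.0486 CPM in Pelo -/- cells and 1.43, 19.1 and 0.350 CPM in WT cells, and Cd34, of the bulge, had 4.63, 0.757 and 0.146 CPM in Pelo -/- cells and 3.29, 29.7 and 8.41 CPM in WT cells. Whether WT replicate 2 held more follicle cells was not tested. Ptch1, the Hedgehog receptor, kept separate groups with or without it, with 14.4, 24.6 and 23.8 CPM in Pelo -/- cells and 34.7, 38.7 and 35.8 CPM in WT cells (-0.80 ± 0.33). Defb6, a defensin, had 73.3, 71.6 and 170 CPM in Pelo -/- cells and 156, 443 and 276 CPM in WT cells (-1.47 ± 0.44). Lrig1 had 33.1, 47.5 and 43.9 CPM in Pelo -/- cells and 38.3, 35.1 and 50.8 CPM in WT cells.

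**Figure D3:**
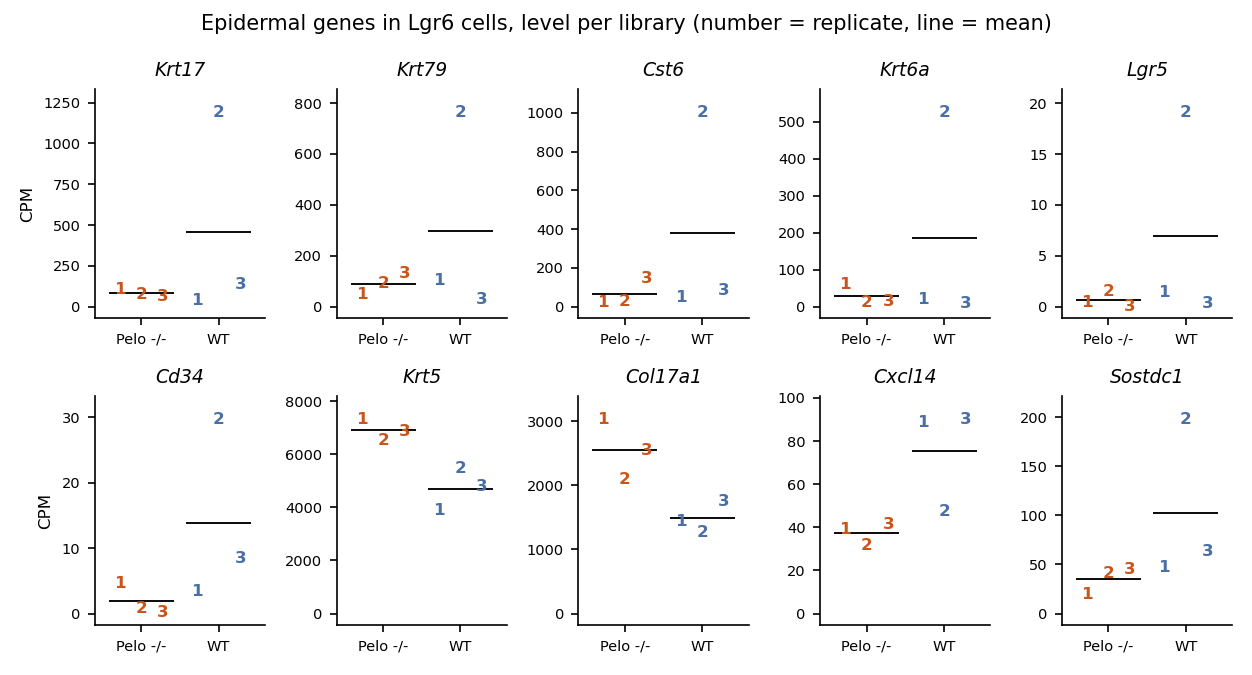
Each panel shows 1 epidermal gene, with CPM on the y axis and the Pelo -/- and WT libraries of Lgr6 cells on the x axis. Numbers are the replicates and lines the group means. WT replicate 2 alone is high for Krt17, Krt79, Cst6, Krt6a, Lgr5 and Cd34, while the groups are separate for Krt5, Col17a1, Cxcl14 and Sostdc1.

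The balance of differentiation and wound genes turned with single libraries. Of 41 spinous and granular genes, 24 were higher and 17 lower in value, with a median of 0.23, which was 0.00 without WT replicate 2 and -0.14 without Pelo -/- replicate 3. Of 22 wound and hyperproliferation genes that passed the filter, out of 50 listed, 10 were higher and 12 lower, with a median of -0.22. Without WT replicate 2, 15 of these were higher and 7 lower, with a median of 0.15. Tgm3, a transglutaminase of the cornified envelope, had 42.7, 10.4 and 16.8 CPM in Pelo -/- cells and 3.44, 8.60 and 8.02 CPM in WT cells (1.80 ± 0.57). Klk5, a protease of the cornified layer, had 1.58, 0.656 and 0.778 CPM in Pelo -/- cells and 2.65, 5.63 and 9.02 CPM in WT cells (-2.52 ± 0.82). Krt2, a keratin of late differentiation, was high in Pelo -/- replicate 3 alone, with 4.83, 2.32 and 132 CPM in Pelo -/- cells and 4.18, 2.42 and 3.15 CPM in WT cells. Sprr1a, a cornified envelope precursor, had 0.591, 1.31 and 1.85 CPM in Pelo -/- cells and 4.33, 90.9 and 5.87 CPM in WT cells, and without WT replicate 2 its log2 fold change was -2.02 in place of -4.75. Krt6a had 59.7, 11.2 and 14.7 CPM in Pelo -/- cells and 20.8, 526 and 7.88 CPM in WT cells, and its sign turned without that library.

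**Figure D4:**
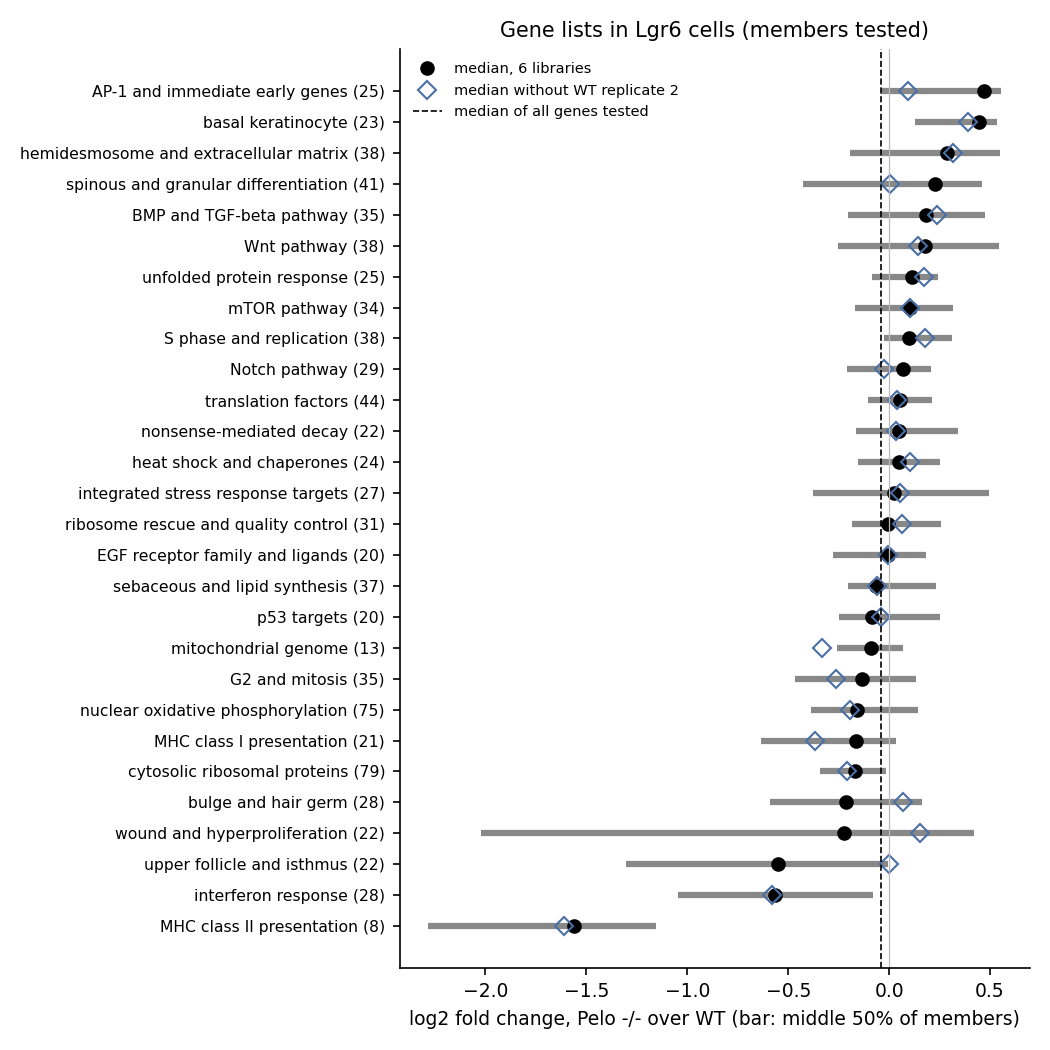
Each row is 1 of 28 gene lists, with the number of members tested in brackets and the log2 fold change of Pelo -/- over WT in Lgr6 cells on the x axis. Filled points are medians over 6 libraries, bars the middle 50% of members, open diamonds the medians without WT replicate 2, and the dashed line the median of all genes tested (-0.04). The MHC class II list lies lowest, at -1.56, and the diamonds of the follicle lists move to about 0.

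The translation machinery showed small shifts that depended on single WT libraries. Of 79 cytosolic ribosomal protein genes, 60 were lower in value, with a median of -0.17, and without WT replicate 3 only 28 were lower and the median was 0.05. Rps19 had 366, 337 and 442 CPM in Pelo -/- cells and 380, 821 and 1380 CPM in WT cells (-1.17 ± 0.42). Rpl18 and Rplp1 were likewise high in WT replicates 2 and 3 and low in WT replicate 1, and no ribosomal protein gene had all Pelo -/- libraries below all WT libraries. Rpl34 went the other way, with 95.8, 85.7 and 95.2 CPM in Pelo -/- cells and 78.7, 37.0 and 46.2 CPM in WT cells (0.77 ± 0.32). Among 44 translation factors 26 were higher and 18 lower in value, and the groups were separate for 6 that were higher, or 13.6% against 4.97% of all genes tested, and for none that was lower. All 44 had a mean log2 CPM of 3 or more, and among the genes at that level 7.10% had separate groups on the higher side and 2.34% on the lower side. Eif3a, a subunit of initiation factor eIF3, had 504, 421 and 421 CPM in Pelo -/- cells and 343, 294 and 258 CPM in WT cells (0.59 ± 0.29). Eif3f, of the same complex, had 395, 448 and 347 CPM in Pelo -/- cells and 307, 310 and 227 CPM in WT cells (0.50 ± 0.29). Eif5a had 96.2, 129 and 172 CPM in Pelo -/- cells and 78.3, 347 and 325 CPM in WT cells, and its groups overlapped. The 22 genes of nonsense-mediated decay had a median of 0.05, and none had separate groups.

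Growth and stress pathways stayed close to the background. mTOR pathway genes had a median of 0.10 over 34 genes. Sesn1, a leucine sensor that restrains mTORC1 and is also a p53 target, had 75, 69 and 62.8 CPM in Pelo -/- cells and 104, 101 and 117 CPM in WT cells (-0.64 ± 0.26). Pdpk1, the kinase that activates Akt and S6 kinase, had 66.6, 64.7 and 109 CPM in Pelo -/- cells and 62.3, 40.9 and 47.1 CPM in WT cells (0.68 ± 0.31). Targets of the integrated stress response had a median of 0.02 over 27 genes and went both ways. Mthfd2, of mitochondrial folate metabolism, had 0.838, 3.94 and 2.33 CPM in Pelo -/- cells and 7.91, 13.8 and 7.80 CPM in WT cells (-2.05 ± 0.70). Ddit3, a transcription factor of stressed cells, had 4.88, 5.40 and 3.40 CPM in Pelo -/- cells and 8.80, 12.5 and 6.61 CPM in WT cells (-1.03 ± 0.56). Slc7a5, an amino acid transporter, was higher in value, with 46.3, 60.5 and 42.4 CPM in Pelo -/- cells and 22.8, 41.9 and 31.1 CPM in WT cells. Atf6, a sensor of the unfolded protein response, had 35.7, 34.4 and 39.1 CPM in Pelo -/- cells and 21.3, 24.8 and 21 CPM in WT cells (0.70 ± 0.30). The unfolded protein response and the heat shock list had medians of 0.12 and 0.05. The 20 p53 targets had a median of -0.09, with Ccng1 at -0.81 ± 0.32 and Mdm2 at 0.42 ± 0.31.

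AP-1 and immediate early genes, which respond within minutes to growth factors and to tissue dissociation, were higher in value in 18 of 25 with a median of 0.47. Without WT replicate 2 the median was 0.09. Egr1 had 1102, 1217 and 1564 CPM in Pelo -/- cells and 1022, 214 and 1337 CPM in WT cells. Dusp6, a phosphatase induced by ERK signalling, had 90.1, 83.9 and 58.7 CPM in Pelo -/- cells and 50.6, 27.5 and 41.3 CPM in WT cells (0.96 ± 0.32). Myc had 176, 185 and 196 CPM in Pelo -/- cells and 169, 91.4 and 137 CPM in WT cells (0.49 ± 0.30). Egr2 was lower in value in Pelo -/- cells, with 21.2, 21.7 and 23.3 CPM, against 56.6, 53.8 and 32.0 CPM in WT cells.

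Division and energy genes had medians between -0.16 and 0.10, and several turned with single libraries. G2 and mitosis genes were lower in value in 22 of 35, with a median of -0.14 that was 0.09 without Pelo -/- replicate 3, and S phase genes higher in 25 of 38, with a median of 0.10. Ccna2, a cyclin of S phase and G2, had 10.7, 9.09 and 7.0 CPM in Pelo -/- cells and 12.2, 18.4 and 14.5 CPM in WT cells (-0.75 ± 0.43). Chaf1b, a histone chaperone of replication, had 4.78, 7.42 and 3.30 CPM in Pelo -/- cells and 8.65, 12 and 14.6 CPM in WT cells (-1.18 ± 0.53), while Mcm2, of the replicative helicase, had 63.2, 71.5 and 64.0 CPM in Pelo -/- cells and 58.3, 49.3 and 39.0 CPM in WT cells (0.44 ± 0.28). Nuclear genes of oxidative phosphorylation were lower in value in 50 of 75, with a median of -0.16, and without WT replicate 3 in 29 of 75, with a median of 0.06. The 13 genes of the mitochondrial genome were higher in 6 and lower in 7, with a median of -0.09. All 13 were lower without WT replicate 2, with a median of -0.33, and 11 were higher without WT replicate 3, with a median of 0.20. The 37 genes of sebaceous and lipid synthesis had a median of -0.07, which lay between -0.31 and 0.13 with single libraries left out. Neither list held a gene with separate groups.

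Wnt3a and Bmp2, ligands of the Wnt and BMP pathways, were among the signalling genes with separate groups. Wnt3a had 26.5, 29.4 and 20.6 CPM in Pelo -/- cells and 15.5, 10.9 and 14.1 CPM in WT cells (0.92 ± 0.36). Wnt4 and Wnt3 were higher in value by 0.85 ± 0.32 and 0.79 ± 0.34, with groups that overlapped. Bmp2 had 60.6, 60.8 and 81.7 CPM in Pelo -/- cells and 51.6, 21.8 and 41.1 CPM in WT cells (0.83 ± 0.34). Id1, a target of BMP signalling, had 59.8, 34.6 and 83.6 CPM in Pelo -/- cells and 32.2, 26.0 and 31.4 CPM in WT cells (0.99 ± 0.34). The Wnt list had 3 genes with separate groups on the higher side and 3 on the lower side, among them Sostdc1, or 7.89% of 38 each way, against 4.97% and 4.13% of all genes. Among genes whose mean log2 CPM was 3 or more, 7.10% had separate groups on the higher side and 2.34% on the lower side. The BMP and TGF-beta list had 3 on the higher side, or 8.57% of 35, and none on the lower side. Both medians were 0.18, and that of the BMP and TGF-beta list turned to -0.07 without Pelo -/- replicate 1. In the Notch list, with a median of 0.07 over 29 genes, Numb, an inhibitor of the receptor, had 55.9, 41.8 and 46.0 CPM in Pelo -/- cells and 27.1, 25.4 and 35.8 CPM in WT cells (0.70 ± 0.30). Notch3 had 12.2, 10.5 and 16.9 CPM in Pelo -/- cells and 24.7, 20.6 and 18.9 CPM in WT cells (-0.70 ± 0.38). The 20 genes of the EGF receptor family and its ligands had a median of -0.01.

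Markers of other skin cells overlapped between the groups in their summed levels. Over all genes tested 53.1% were lower in value, and 4.13% had separate groups on the lower side. The marker lists are small, and their counts are a description only. Fibroblast markers summed to between 10.1 and 17.3 CPM in Pelo -/- libraries and between 15.9 and 34.5 CPM in WT libraries, and 8 of 9 tested were lower in value. Melanocyte markers summed to between 11.8 and 30.9 CPM in Pelo -/- libraries and between 18.3 and 39.7 CPM in WT libraries. Endothelial markers summed to between 4.96 and 14.6 CPM in Pelo -/- libraries and between 5.61 and 14.4 CPM in WT libraries. T cell markers summed to between 50.2 and 92.0 CPM in Pelo -/- libraries and between 55.1 and 132 CPM in WT libraries, with 7 of 11 tested lower in value. Trbc1, a T cell receptor chain, had 4.19, 3.03 and 4.37 CPM in Pelo -/- libraries and 6.39, 8.01 and 5.47 CPM in WT libraries, and with Il2rb, at under 1 CPM in every library, it made 2 T cell markers of 11 whose groups were separate, both lower. Sebocyte markers were the most uneven, with 77.9 to 480 CPM in Pelo -/- libraries and 187 to 353 CPM in WT libraries. Merkel cell and neural markers summed to between 3.75 and 8.73 CPM in Pelo -/- libraries and between 3.99 and 12.2 CPM in WT libraries, and Piezo2 was the 1 of 3 tested with separate groups, at -1.28 ± 0.87. Markers of red cells, muscle and fat summed to between 7.52 and 20.3 CPM in Pelo -/- libraries and between 10.2 and 13.9 CPM in WT libraries. The list of sweat gland and growing hair, which holds genes that basal keratinocytes also express, among them Gata3 at 778 to 961 CPM in Pelo -/- libraries and 485 to 927 CPM in WT libraries, summed to between 802 and 980.1 CPM in Pelo -/- libraries and between 524 and 953 CPM in WT libraries.

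The same contrast was set beside that of Lrig1 cells, where 3 Pelo -/- libraries were compared with 2 WT libraries, and of Lgr5 cells, with 3 libraries each. These comparisons share no samples with the Lgr6 comparison. Of the 8 class II genes, 4 were higher and 4 lower in value in Lrig1 cells. There Cd74 had a log2 fold change of -0.01 ± 0.50, H2-Aa 0.11 ± 0.39 and H2-DMa -1.18 ± 0.55. H2-Ab1 had 3.79, 2.65 and 2.01 CPM in Pelo -/- Lrig1 cells and 5.83 and 6.90 CPM in WT Lrig1 cells (-1.17 ± 0.73), and its effect in Lgr6 cells minus that in Lrig1 cells was -1.04 ± 0.98. The Cd74 levels in Lrig1 cells were 49.0, 94.2 and 59.5 CPM with Pelo -/- and 27.8 and 109 CPM with WT. In Lgr5 cells Cd74 had -0.77 ± 1.0, at much lower levels than in Lgr6 cells. These were 0.602, 0.745 and 0.280 CPM with Pelo -/- and 0.757, 0.661 and 1.22 CPM with WT. Scaled in the same fit, Cd74 in Lgr6 cells had 36.4, 40.1 and 42.1 CPM with Pelo -/- and 330, 115 and 144 CPM with WT. The effect on Cd74 in Lgr6 cells minus that in Lrig1 cells was -2.33 ± 0.73, with an edgeR adjusted p of 0.964, so a difference between these populations did not pass its test. Arhgef28 had 1.09 ± 0.26 in Lgr6 cells, -0.37 ± 0.26 in Lrig1 cells and 0.19 ± 0.64 in Lgr5 cells. Sash1 was higher in value in all 3 populations, with 1.26 ± 0.35, 0.83 ± 0.38 and 0.95 ± 0.52 in Lgr6, Lrig1 and Lgr5 cells.

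**Figure D5:**
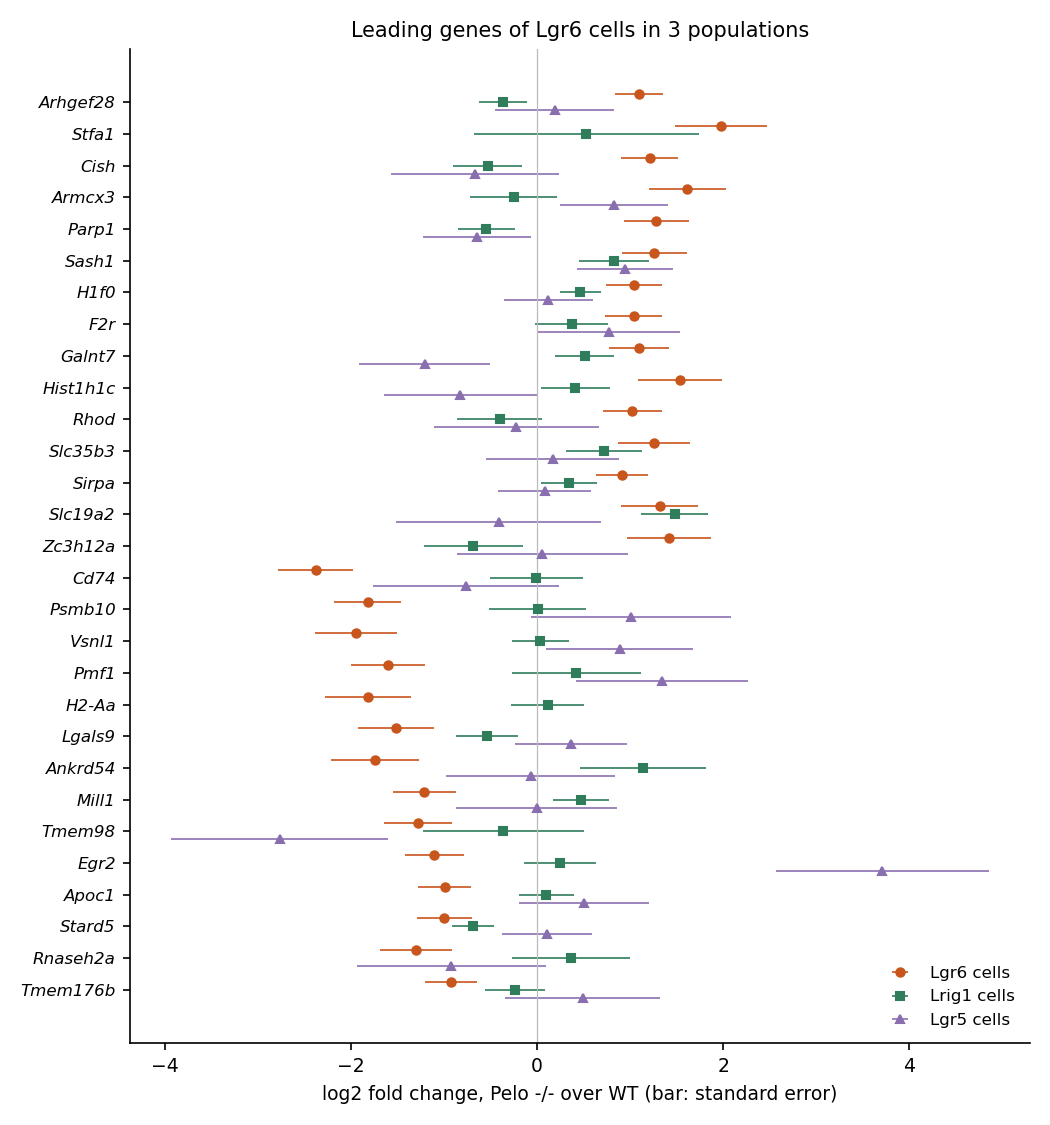
Leading genes of Lgr6 cells are on the y axis and the log2 fold change of Pelo -/- over WT on the x axis, with bars for the standard error, for Lgr6, Lrig1 and Lgr5 cells, each from its own fit. Cd74 lies at -2.38 in Lgr6 cells and at -0.01 in Lrig1 cells, and H2-Aa and Stfa1 have no Lgr5 point because they did not pass the filter there.

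None of these differences between populations passed its own test. For the effect in Lgr6 minus that in Lrig1, edgeR called 0 of 21141 genes (0.00%), and 1058 (5.0%) had an unadjusted p under 0.05. DESeq2 called 87. The smallest p on the higher side belonged to Arhgef28, whose effects differed by 1.49 ± 0.34, followed by Cbr4, Polr3d, Atp5s and Parp1. On the lower side it belonged to Mill1, at -1.65 ± 0.44, and Vsnl1, at -1.95 ± 0.53, followed by Epn1, Shroom2 and Rbck1. All 10 had an edgeR adjusted p of 0.964. Arhgef28, Parp1, Mill1 and Vsnl1 are also leading genes of Lgr6 cells, and Parp1 differed by 1.88 ± 0.49.

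For the effect in Lgr6 minus that in Lgr5, edgeR called 0 of 25716 genes (0.00%), 986 (3.83%) had an unadjusted p under 0.05, and DESeq2 called 62. Fam13a differed by -4.05 ± 0.79 and Tm4sf1 by -4.43 ± 0.88, both with an edgeR adjusted p of 0.733. In Lgr6 cells Fam13a had 0.394, 0.780 and 1.27 CPM with Pelo -/- and 8.28, 5.12 and 3.90 CPM with WT. In Lgr5 cells it had 71.0, 94.0 and 229 CPM with Pelo -/- and 57.7, 73.5 and 35.9 CPM with WT, so its level was higher in the Lgr5 libraries of both genotypes. Clic3 and Phlda1 followed on the lower side and Gpt, Lrrc8b, Pard6b, Vav3 and Gss on the higher side, where Gpt differed by 3.10 ± 0.70.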

How the data were processed

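Gene expression was measured by RNA sequencing of sorted epidermal cells. The authors deposited whole-number counts per gene, not normalized, which were used as deposited. Per the submitters' processing notes, STAR and edgeR were used with GRCm38 and mm10. Versions, counting tool, annotation release and use of strand: not given in the sources used. Of 48820 identifiers, 48144 matched GENCODE M21 without their version and 676 kept their identifier as name.

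Groups and replicate numbers came from the sample titles. The 6 Lgr6 libraries were fitted in edgeR 4.0.16 (R 4.3.3) by the robust quasi-likelihood test, with TMM scaling and filterByExpr (minimum count 10, minimum total 15), with calls made where the Benjamini-Hochberg adjusted p was under 0.05. Standard errors were obtained by dividing the log2 fold change by the root of F. Differences of effects were fitted over the 11 Lrig1 and Lgr6 libraries and the 12 Lgr5 and Lgr6 libraries. CPM of Lrig1 and Lgr5 cells, and all CPM of Fam13a, were scaled within these fits. Their scale differs from that of the fit of the 6 Lgr6 libraries. The fit was also run on simulated data. No outcome of that run is given here, so it does not show which changes the fit could have called in these libraries.

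The 28 process lists and 9 marker lists, and the members themselves, were chosen with earlier results of these data known, so lists are described by counts and medians and not tested. Named genes were the 15 per direction with the smallest p among those whose mean log2 CPM is 3 or more and whose groups are separate, up to 4 members with the smallest p per list, Pelo, Itga1, Lgr6, Lrig1, Lgr5, Hbs1l and Abce1, and 5 per direction for each difference of effects. A few genes reached by it are not reported here. Genes outside this rule, such as Krt5, Krt14, Trp63, Egr1, Atf3, Krt6a, Krt79, Cst6 and several class II, marker and list members, were chosen after their values were seen.

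Same-numbered Lgr6 libraries deviated together from their group means, with correlations of 0.124, 0.248 and 0.151 across 9016 genes, against -0.171 to 0.0358 for other pairs, so the replicate number was also fitted as a block. Replicates differed by more than sampling noise, with a chi-square per degree of freedom of at least 61.1. Alternatives were RLE scaling, no filter, a mean CPM of at least 5, DESeq2 1.42.0, limma-voom (limma 3.58.1), fits with more libraries, dispersions that were not robust, the block, and each library left out. Floors cover counting error only, while the standard errors, like the p-values, include the spread between libraries. Promoter windows were taken from RefSeq on GRCm38.p6.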

Additional observations from a re-analysis of the deposited data

How the results depend on the processing

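Whether any gene was called depended on the tool and the filter. In Lgr6 cells edgeR called 0 genes under RLE scaling, a mean CPM of at least 5, all 17 libraries, the 11 Lrig1 and Lgr6 libraries, dispersions that were not robust, each library left out, and limma-voom likewise. Without a filter it called 42 (5 higher, 37 lower), and DESeq2 called 49 (16 higher, 33 lower). With the replicate block edgeR called 0 and changed no call. The block in limma-voom, chosen after seeing the data, called 0, and the block in DESeq2, also added later, called 67 (21 higher, 46 lower), of which 30 were among the 49. The difference from Lrig1 had 62 calls without a filter, 87 in DESeq2, and 0 with the replicate block and with each library left out. The difference from Lgr5 had 125 without a filter, 62 in DESeq2, 0 with the block, and 0 to 1 with single libraries left out, the 1 without WT Lgr5 replicate 1. Over all genes the log2 fold changes had a median of -0.28 without a filter and -0.27 with all 17 libraries, against -0.04 in the fit of 6 libraries, and more genes entered both. The cause of the differences between tools was not tested.

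Many named genes were chosen for separate groups or a small p in these same libraries, which leaves their direction little room to turn. The count that follows is therefore a description only. Of 107 tested genes named with Lgr6 values, 97 kept their direction under every alternative. The other 10 turned with single libraries left out, over log2 ranges of -0.40 to 0.065 for Abce1, -1.60 to 0.13 for H2-DMb2, -0.095 to 0.32 for Gata3, -0.57 to 0.13 for Hbs1l, -3.82 to 1.00 for Krt6a, -2.22 to 0.44 for Krt79, -0.19 to 0.48 for Lgr6, -0.10 to 0.30 for Trp63, -0.10 to 0.21 for Lrig1 and -0.081 to 0.45 for Pelo. Lrig1 was also at -0.046 with a mean CPM of at least 5 and at -0.055 with all 17 libraries. Of 37 lists, 18 had a median that moved beyond 1 SD of their level between libraries under at least 1 alternative.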
